A study of Mus musculus with 36 samples.

Results

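The receptors for hematopoietic growth factors described here are encoded by Csf3r, Csf1r, Csf2ra, Csf2rb, Csf2rb2, Il3ra and Epor. These 7 genes, of 38887 in the count table, were chosen by name as the chains that bind G-CSF, M-CSF, GM-CSF, IL-3 and erythropoietin. Each was found once in the table.

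The study asked how the receptor for IL-27, encoded by Il27ra, acts in blood-forming cells of mice infused with angiotensin II (Ang II), a treatment that leads to abdominal aortic aneurysm in this strain. RNA was sequenced from bone marrow cells sorted as long-term hematopoietic stem cells (LT-HSC, lineage-negative Sca-1+ c-Kit+ CD150+ CD48−) or as the progenitor population HPC-1 (CD150− CD48+ within the same gate, named ST-HSC in the labels), with 5000 cells per library. Mice received PBS or Ang II for 2 weeks. All of them, controls included, were C57BL/6 mice without a functional Apoe gene on a Western diet, and their age and sex are not in the labels.

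Mice with intact Il27ra are called WT here, although they are Apoe−/−, those with 1 disrupted allele Het (Apoe−/− Il27ra+/−) and those with both disrupted KO (Apoe−/− Il27ra−/−). The Il27ra alleles were disrupted throughout the animal and not in a chosen cell type. Of the 17 LT-HSC libraries, 1 WT, 3 Het and 3 KO libraries followed PBS and 2 WT, 4 Het and 4 KO libraries followed Ang II. Of the 19 HPC-1 libraries, 2 WT, 3 Het and 3 KO libraries followed PBS and 3 WT, 4 Het and 4 KO libraries followed Ang II. The total counts per library ran from 1980283 to 6861078, with a median of 2560838 in LT-HSC and 3254832 in HPC-1. A total of 11 libraries (7 LT-HSC, 4 HPC-1) held at least 4000000 counts, none of them WT. Levels are given as counts per M (mega) counts of the library (CPM) after TMM scaling.

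Growth factors of this family act on hematopoietic cells through transmembrane receptors that lack a kinase of their own and signal through JAK kinases and STAT proteins, with the exception of the M-CSF receptor, which is itself a tyrosine kinase. The G-CSF and erythropoietin receptors work as pairs of the same chain, whereas the receptors for GM-CSF and IL-3 join a cytokine-specific alpha chain to a beta chain. Csf2rb encodes the beta chain shared by the GM-CSF, IL-3 and IL-5 receptors, and the mouse has in Csf2rb2 an additional beta chain used by IL-3 alone. In bone marrow these receptors are known for their part in the production of granulocytes, macrophages and red cells.

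Before the receptors, the labels were checked against the altered gene and the sorted markers. In LT-HSC after PBS, Il27ra was at 17.1 CPM in WT, at 42.7, 24.1 and 25.5 in Het and at 9.41, 6.93 and 16.3 in KO. In LT-HSC after Ang II it was at 42.8 and 51.7 CPM in WT, at 30.1, 25.4, 27.02 and 32.8 in Het and at 16.3, 11.6, 16.1 and 19.3 in KO. The library labelled LT-HSC PBS WT therefore lay within the range of the KO libraries, while the others kept the order of the genotypes. In HPC-1 the genotypes overlapped: after PBS Il27ra was at 8.25 and 11.9 CPM in WT, at 15.5, 11.04 and 9.95 in Het and at 6.69, 11.1 and 8.34 in KO. After Ang II it was at 10.2, 8.87 and 6.06 CPM in WT, at 5.45, 9.57, 14.3 and 16.4 in Het and at 6.62, 5.90, 4.63 and 9.03 in KO. The table does not say which part of the gene these reads come from. Apoe, disrupted in every mouse, was at 0 to 27.4 CPM over the 36 libraries.

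Most libraries carried the markers of their gate, and 3 LT-HSC libraries stood apart. Slamf1, which encodes CD150, was at 21.9 to 73.7 CPM in the 14 other LT-HSC libraries and at 0 to 8.22 CPM in HPC-1, and Cd48 was at 0 to 1.86 CPM in the former and at 43.9 to 85.5 CPM in the latter. The library labelled LT-HSC PBS KO 2 had 2.36 CPM of Slamf1 and 62.5 CPM of Cd48, both within the HPC-1 range. LT-HSC Ang II KO 2 had 20.7 CPM of Slamf1 and 8.19 CPM of Cd48, and LT-HSC PBS KO 3 had 44.0 and 4.15 CPM. All 3 also held transcripts of granule proteins: the summed level of 10 granulocyte markers was 3998 CPM in PBS KO 2 (most abundant gene Mpo), 1353 CPM in PBS KO 3 (Ngp) and 8189 CPM in Ang II KO 2 (S100a9), against 29.6 to 118 CPM in the other 14 LT-HSC libraries and 2433 to 7316 CPM in HPC-1. None of the 10 markers was at 0 in these 3 libraries. Summed erythroid markers were at 3626 CPM in PBS KO 3 and 3327 CPM in Ang II KO 2, with the hemoglobin gene Hba-a2 the most abundant. In the 14 other LT-HSC libraries these sums ran from 332 to 1486 CPM. The receptors' fold changes averaged over groups are given with and without the 3 libraries that stand apart. The order of the levels and the correlations include these 3 libraries. In bulk libraries, a lower level in fewer cells and less RNA per cell cannot be told apart.

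In the mouse assembly GRCm38 the receptor genes lie on 6 chromosomes. The beta chain genes are neighbours on chromosome 15 in opposite orientation, Csf2rb (ENSMUSG00000071713) at 78325752 to 78353847 on the plus strand and Csf2rb2 (ENSMUSG00000071714) at 78282507 to 78305721 on the minus strand. The others are Csf3r (ENSMUSG00000028859, chromosome 4, 126024550 to 126044440, plus), Epor (ENSMUSG00000006235, chromosome 9, 21958897 to 21963506, minus), Il3ra (ENSMUSG00000068758, chromosome 14, 14346275 to 14356011, plus), Csf1r (ENSMUSG00000024621, chromosome 18, 61100598 to 61132149, plus) and Csf2ra (ENSMUSG00000059326, chromosome 19, 61223957 to 61228429, minus). Of the 75-base stretches in its exons, Csf2rb2 shares 10.6% with Csf2rb and Csf2rb shares 7.15% with Csf2rb2, so reads from these stretches cannot be assigned to either gene for certain and their separate values are uncertain to that extent. All 7 genes passed the filter on low counts in the model of both cell types.

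Per kilobase of exon, the order of the receptors differed between the populations. In LT-HSC the median level over 17 libraries was 25.7 CPM per kb for Csf3r, 14.6 for Csf2ra, 3.70 for Epor, 2.53 for Csf2rb2, 2.46 for Csf2rb, 1.10 for Il3ra and 0.381 for Csf1r. Csf3r was above Csf2ra in 15 of these libraries, Csf2ra above Epor in 17, Epor above Csf2rb2 in 14 and Csf2rb above Il3ra in 16. The neighbours Csf2rb2 and Csf2rb (in order in 9 of 17 libraries) and Il3ra and Csf1r (11 of 17) did not separate beyond their spread. In HPC-1 the median over 19 libraries was 50.7 CPM per kb for Csf3r, 18.9 for Csf2ra, 16.1 for Csf2rb, 11.5 for Csf1r, 3.42 for Il3ra, 3.08 for Csf2rb2 and 0.685 for Epor. Here Csf3r was above Csf2ra in 18 libraries, Csf2rb above Csf1r in 16, Csf1r above Il3ra in 19 and Csf2rb2 above Epor in 15, whereas Csf2ra and Csf2rb (10 of 19) and Il3ra and Csf2rb2 (12 of 19) overlapped. Csf1r, lowest of the 7 in LT-HSC, thus took the fourth place in HPC-1, and Epor moved from the third place to the last.

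**Figure D1:**
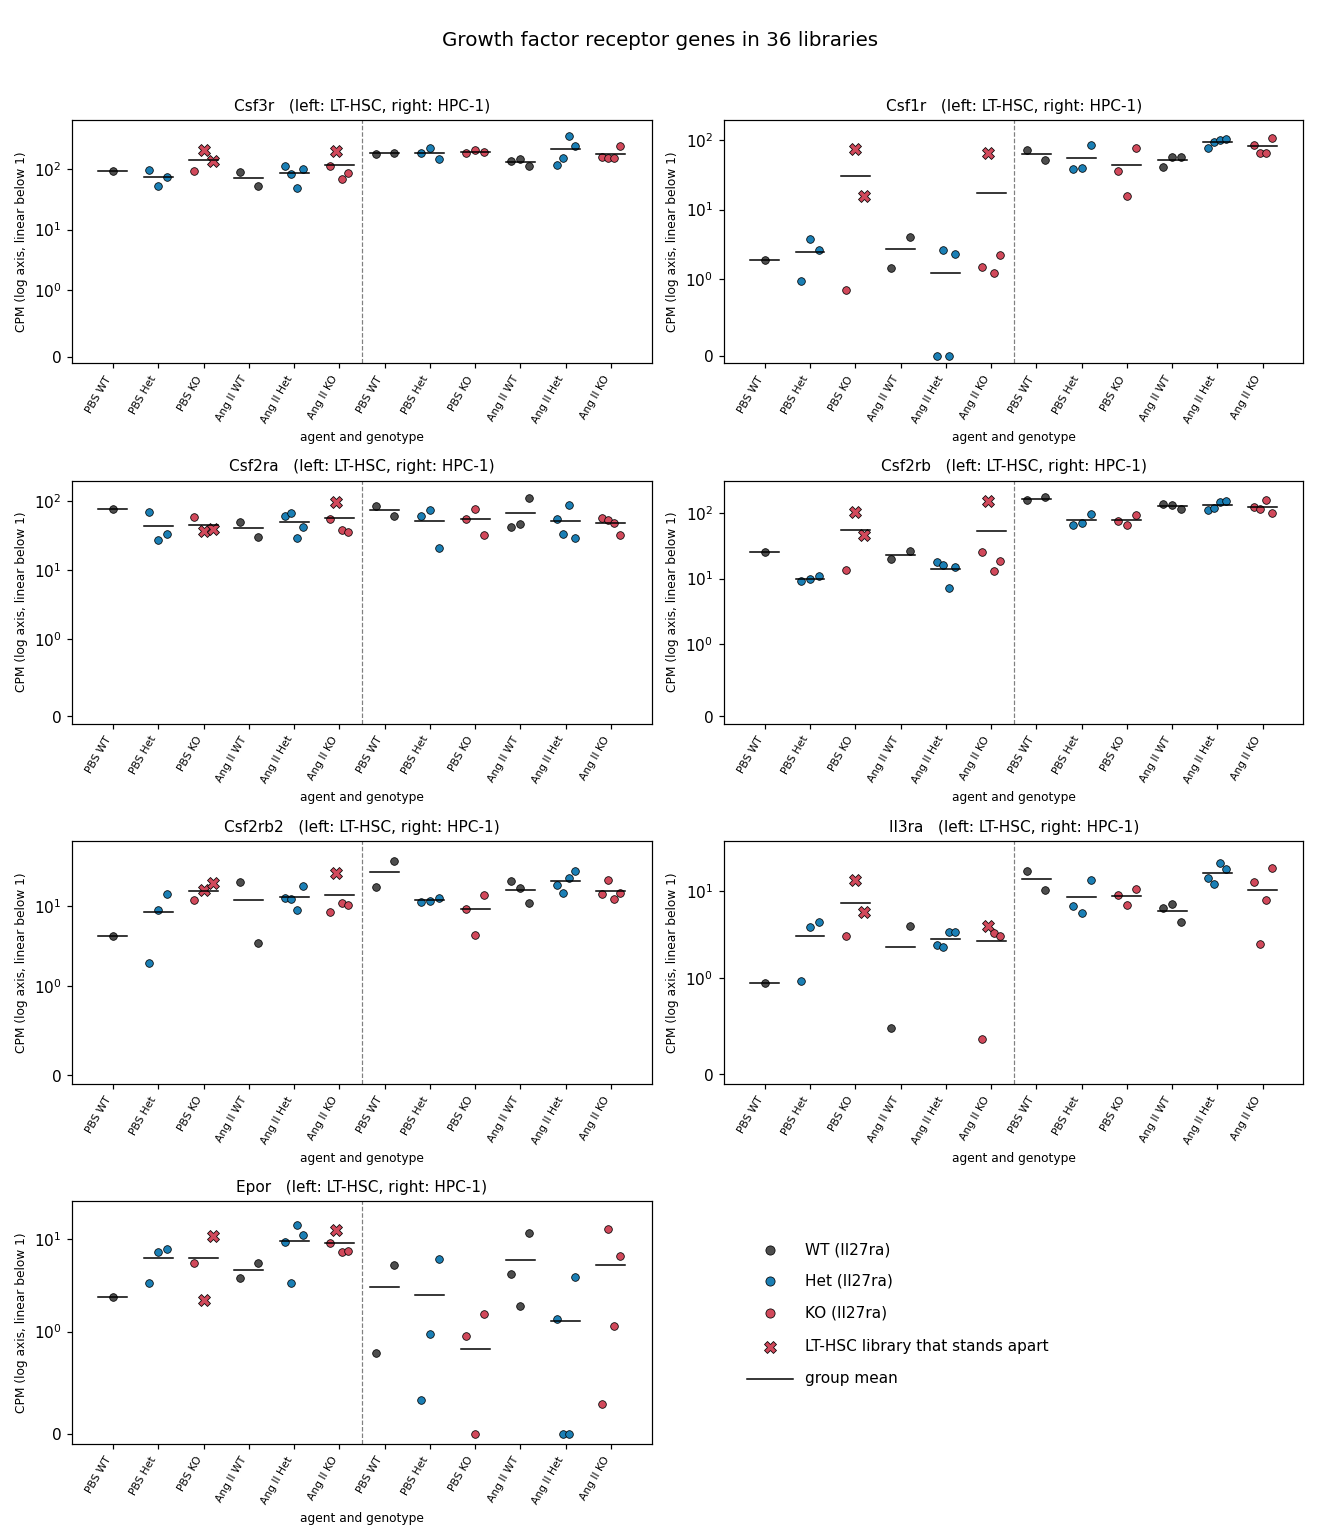
Level of each of the 7 receptor genes (CPM, vertical axis linear near 0 and logarithmic above) in the 36 libraries, by cell type, agent and genotype. Points are libraries, crosses are the 3 LT-HSC libraries that stand apart (PBS KO 2, PBS KO 3, Ang II KO 2) and short lines are group means; Csf1r lies at 0 to 3.98 CPM in the other 14 LT-HSC libraries and at 16.0 to 109 CPM in HPC-1.

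The difference between LT-HSC and HPC-1 was tested over the 5 combinations of agent and genotype with at least 2 libraries of each cell type. It passed an adjusted p of 0.05 for 5 of the 7 receptors (edgeR quasi-likelihood test with Benjamini-Hochberg adjustment), as it did for 6543 of 18013 genes (36.3%). Lower in LT-HSC were 4 receptors (18.4% of all genes) and higher was 1 (17.9% of all genes). The median log2 fold change of LT-HSC against HPC-1 was −0.93 over the 7 receptors and 0.03 over all genes tested. DESeq2 called the same 5 receptors and 6795 genes. These p-values measure the spread between these libraries, and the labels do not say that each came from a separate animal.

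Among the receptors made of a single kind of chain, Csf3r encodes the receptor for G-CSF, the main factor of neutrophil production. In LT-HSC after PBS its level was 93.6 CPM in WT, 98.0, 53.2 and 74.4 in Het and 92.8, 207 and 137 in KO, and after Ang II it was 89.0 and 53.7 in WT, 112, 83.7, 48.8 and 102 in Het and 113, 204, 68.4 and 87.6 in KO. In HPC-1 after PBS it was 183 and 190.0 CPM in WT, 186, 229 and 149.7 in Het and 188, 213 and 193 in KO, and after Ang II it was 140.2, 146 and 114 in WT, 116, 154, 363 and 242 in Het and 163, 157, 157 and 245 in KO. Only the 3 LT-HSC libraries that stand apart reached the lowest HPC-1 library, and the other 14, at 48.8 to 113 CPM, lay below all 19. Averaged over the 5 combinations, Csf3r was 1.90-fold lower in LT-HSC (log2 fold change −0.93, SE 0.171, adjusted p = 8.09e-05). Without the 3 libraries the log2 fold change was −1.10.

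Csf1r encodes the M-CSF receptor, the tyrosine kinase on which monocytes and macrophages depend. After PBS its level in LT-HSC was 1.90 CPM in WT, 0.970, 3.80 and 2.59 in Het and 0.856, 76.4 and 15.6 in KO. After Ang II it was 1.44 and 3.98 CPM in WT, 0, 2.62, 0 and 2.25 in Het and 1.48, 65.5, 1.23 and 2.20 in KO. The 2 libraries without a count allow up to 1.41 and 0.628 CPM, counting error alone considered. HPC-1 held 73.5 and 52.1 CPM in WT, 39.0, 40.3 and 85.9 in Het and 36.3, 16.0 and 78.8 in KO after PBS, and 41.9, 57.0 and 58.0 in WT, 77.2, 94.8, 100.2 and 104 in Het and 86.7, 65.3, 66.5 and 109 in KO after Ang II. Csf1r was thus close to absent in 14 LT-HSC libraries, which lay at 0 to 3.98 CPM, present in every HPC-1 library and present in PBS KO 2 and Ang II KO 2 at levels inside the HPC-1 range. It was 11.4-fold lower in LT-HSC (log2 fold change −3.51, SE 0.559, adjusted p = 1.64e-05). The log2 fold change was −4.16 without Ang II KO 2 and −5.16 (SE 0.402) without all 3.

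Epor encodes the receptor for erythropoietin, on which red cell production depends, and was the receptor that was higher in LT-HSC on average. In LT-HSC after PBS its level was 2.37 CPM in WT, 3.40, 7.28 and 7.94 in Het and 5.56, 2.21 and 10.9 in KO, and after Ang II it was 3.85 and 5.47 in WT, 9.41, 3.36, 14.5 and 11.1 in Het and 9.23, 12.5, 7.35 and 7.43 in KO. In HPC-1 after PBS it was 0.786 and 5.25 CPM in WT, 0.330, 0.974 and 6.09 in Het and 0.956, 0 and 1.54 in KO, and after Ang II it was 4.19, 1.90 and 11.7 in WT, 1.36, 0, 0 and 3.87 in Het and 0.288, 12.9, 1.16 and 6.67 in KO. The transcript was found in all 17 LT-HSC libraries and in 16 of 19 HPC-1 libraries, and 7 of the latter reached the lowest LT-HSC library. The 3 libraries at 0 allow up to 0.922, 1.37 and 1.30 CPM. Epor was 2.71-fold higher in LT-HSC (log2 fold change 1.44, SE 0.457, adjusted p = 0.0117), and its log2 fold change was 1.40 (adjusted p = 0.0257) without the 3 libraries that stand apart. By combination the log2 fold change was 1.27 in Het and 2.80 in KO after PBS, and −0.32 in WT, 2.64 in Het and 0.80 in KO after Ang II, none of which passed the test by edgeR. With the PBS WT libraries included as a sixth combination the log2 fold change was 1.14 (adjusted p = 0.0566) and over the 11 libraries of at least 4000000 counts it was 1.08 (adjusted p = 0.142), the highest of adjusted p-values that ran from 0.000519 to 0.142 over 15 alternatives in processing.

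Among the alpha chains, Csf2ra, which binds GM-CSF, did not separate the populations. In LT-HSC after PBS its level was 75.5 CPM in WT, 70.3, 27.2 and 33.6 in Het and 58.6, 36.4 and 38.8 in KO, and after Ang II it was 50.5 and 29.8 in WT, 59.8, 66.9, 29.3 and 42.0 in Het and 55.4, 98.3, 38.6 and 35.1 in KO. In HPC-1 after PBS it was 84.9 and 61.6 CPM in WT, 61.5, 73.1 and 20.7 in Het and 54.2, 76.2 and 31.8 in KO, and after Ang II it was 42.2, 46.9 and 109.9 in WT, 54.5, 33.7, 87.6 and 29.4 in Het and 56.7, 53.8, 48.3 and 32.4 in KO. All 17 LT-HSC libraries lay within the HPC-1 range. The log2 fold change of LT-HSC against HPC-1 was −0.21 (SE 0.222, adjusted p = 0.542), and it was −0.17 without the 3 libraries that stand apart, 0.04 with Y-linked expression as a covariate and 0.35 over the libraries of at least 4000000 counts.

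Csf2ra differed instead between libraries of high and low total counts. Its level was 29.3 to 42.0 CPM (median 36.4) in the 7 LT-HSC libraries of at least 4000000 counts and 27.2 to 98.3 CPM (median 59.2) in the 10 below that total. In HPC-1 it was 20.7 to 32.4 CPM (median 30.6) in 4 libraries of at least 4000000 counts and 33.7 to 109.9 CPM (median 56.7) in 15 below, without overlap. Of the 7 receptors, Csf2ra alone passed the test of high against low totals over both cell types, where 5.10% of genes passed (log2 fold change −0.92, SE 0.170, edgeR adjusted p = 0.000671). Within HPC-1, where 3.84% of genes passed, 2 receptors did, Csf2ra (log2 fold change −1.10, SE 0.255, adjusted p = 0.0144) and, in the other direction, Csf1r (0.84, SE 0.197, adjusted p = 0.0133). Within LT-HSC no receptor passed and 0.134% of genes did (edgeR, 22 genes; Csf2ra −0.82, unadjusted p = 0.000739). This contrast was chosen after seeing the data. Depth class and the absence of counts from Y-linked genes coincided in 35 of 36 libraries, so they cannot be told apart here. Sums of Y-linked counts under 10 were taken as none.

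Il3ra, the alpha chain that binds IL-3, was lower in LT-HSC. Its level in LT-HSC after PBS was 0.950 CPM in WT, 0.970, 3.80 and 4.31 in Het and 2.99, 13.1 and 5.73 in KO, and after Ang II it was 0.481 and 3.98 in WT, 2.35, 2.24, 3.35 and 3.32 in Het and 0.369, 3.88, 3.27 and 3.03 in KO. In HPC-1 after PBS it was 16.9 and 10.1 CPM in WT, 6.61, 5.52 and 13.4 in Het and 8.92, 6.76 and 10.5 in KO, and after Ang II it was 6.28, 6.97 and 4.33 in WT, 14.1, 11.8, 20.8 and 17.6 in Het and 12.7, 2.43, 7.81 and 18.3 in KO. PBS KO 2, at 13.1 CPM, was the highest LT-HSC library, and without the 3 libraries that stand apart only 1 HPC-1 library, at 2.43 CPM, reached down to the highest LT-HSC library at 4.31 CPM. Il3ra was 2.82-fold lower in LT-HSC (log2 fold change −1.50, SE 0.305, adjusted p = 0.000119), and the log2 fold change was −1.76 without the 3 libraries.

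The shared beta chain Csf2rb carried the smallest adjusted p of the 7 receptors. After PBS its level in LT-HSC was 25.6 CPM in WT, 9.22, 9.81 and 10.9 in Het and 13.7, 105 and 46.2 in KO, and after Ang II it was 19.7 and 26.8 in WT, 17.9, 16.1, 7.12 and 14.9 in Het and 25.1, 157, 13.3 and 18.4 in KO. HPC-1 held 159.5 and 176 CPM in WT, 65.1, 70.5 and 98.1 in Het and 75.8, 65.8 and 92.9 in KO after PBS, and 138, 136 and 117 in WT, 114, 120.3, 149 and 152 in Het and 126, 115, 158 and 100.5 in KO after Ang II. The 14 LT-HSC libraries other than those standing apart lay at 7.12 to 26.8 CPM, all below the lowest HPC-1 library at 65.1, and PBS KO 2 and Ang II KO 2 lay among HPC-1. Csf2rb was 4.27-fold lower in LT-HSC (log2 fold change −2.09, SE 0.292, adjusted p = 2.76e-06) and its log2 fold change was −2.76 (SE 0.149) without the 3 libraries.

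Its neighbour Csf2rb2, the beta chain for IL-3, showed no such difference. In LT-HSC after PBS its level was 4.27 CPM in WT, 1.94, 8.86 and 14.3 in Het and 11.98, 15.8 and 19.2 in KO, and after Ang II it was 20.2 and 3.48 in WT, 12.7, 12.3, 9.01 and 17.8 in Het and 8.49, 26.3, 10.8 and 10.2 in KO. In HPC-1 after PBS it was 17.3 and 36.4 CPM in WT, 11.2, 11.7 and 12.8 in Het and 9.24, 4.30 and 13.8 in KO, and after Ang II it was 20.3, 16.8 and 10.8 in WT, 18.2, 14.6, 22.6 and 27.6 in Het and 14.1, 21.2, 12.2 and 14.7 in KO. The populations overlapped, with 14 of 17 LT-HSC libraries at or above the lowest HPC-1 library. The log2 fold change was −0.19 (SE 0.227, adjusted p = 0.609), and −0.33 without the 3 libraries that stand apart. It was −0.60 (adjusted p = 0.0489) with the PBS WT libraries as a sixth combination, where adjusted p-values over 14 alternatives ran from 0.0489 to 0.905. With the counts of both beta chain genes added into a single feature, the log2 fold change was −1.64 and passed the test.

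**Figure D2:**
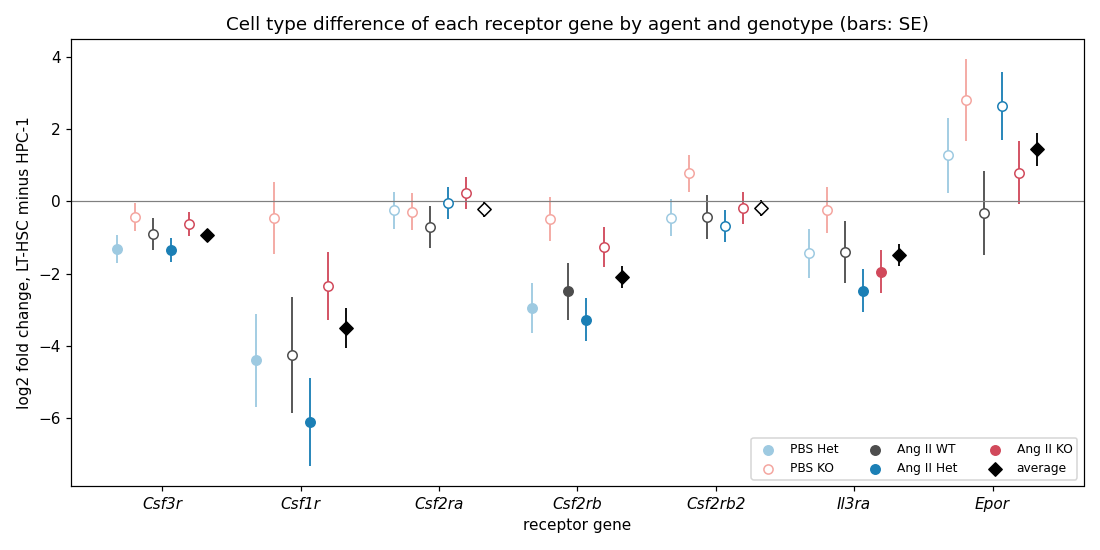
Log2 fold change of LT-HSC against HPC-1 for each receptor, averaged over 5 combinations of agent and genotype and within each combination, with standard errors as bars. Filled points have an adjusted p under 0.05; the averages run from −3.51 for Csf1r to 1.44 for Epor.

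Within single combinations of agent and genotype fewer receptors passed the same edgeR test, 9 of 35 gene and combination pairs. In Het mice after PBS, 3 receptors passed, where 7.67% of all genes did in either direction, and all 3 were lower in LT-HSC, namely Csf3r (log2 fold change −1.33, adjusted p = 0.0360), Csf1r (−4.40, adjusted p = 0.0358) and Csf2rb (−2.95, adjusted p = 0.0109). In WT mice after Ang II, Csf2rb alone passed and was lower (−2.49, adjusted p = 0.0425), where 10.4% of genes passed. In Het mice after Ang II, 4 receptors passed (14.9% of genes) and were lower, Csf3r at −1.34 (adjusted p = 0.00704), Csf1r at −6.11 (adjusted p = 0.00112), Csf2rb at −3.28 (adjusted p = 0.000471) and Il3ra at −2.47 (adjusted p = 0.00357), while Epor was at 2.64 (adjusted p = 0.0524). DESeq2 called 11 pairs, these 9 and Epor in Het mice after Ang II (adjusted p = 0.0221, with 0.00733 to 0.139 over 11 alternatives) and Csf1r in WT mice after Ang II (adjusted p = 0.0166, with 1.86e-16 to 0.241 over 12 alternatives). In KO mice after Ang II, Il3ra alone passed and was lower (−1.95, adjusted p = 0.0245, and −2.11 without the 3 libraries that stand apart), where 12.5% of genes passed. In KO mice after PBS no receptor passed and 0.883% of genes did (edgeR, 159 genes, with 1948 at an unadjusted p under 0.05 and 447 genes but no receptor by DESeq2). Whether the cell type difference itself varied between combinations was tested only for the agent, as given with the Ang II results.

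In both KO combinations the values of Csf1r and Csf2rb moved with the libraries that stand apart. After Ang II the log2 fold change of Csf1r was −2.34 (adjusted p = 0.110), and −5.56 (adjusted p = 0.000211) without Ang II KO 2. For Csf2rb it was −1.26 (adjusted p = 0.138), and −2.74 (adjusted p = 3.35e-05) without that library, and for Csf3r it was −0.62 (adjusted p = 0.246), and −1.02 (adjusted p = 0.0322) without it. After PBS the values were −0.46 for Csf1r and −0.49 for Csf2rb, and −5.57 and −2.45 without PBS KO 2 and PBS KO 3, which leaves 1 LT-HSC library that is assumed to vary like the other groups. Csf1r in WT mice after Ang II had a log2 fold change of −4.26 (adjusted p = 0.0921), and an adjusted p of 0.0177 in the fit without Ang II KO 2.

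Of the 9 calls within combinations, 5 were lost without single libraries, and the 4 in Het mice after Ang II were kept without each of the 36. A fit with the replicate number within agent and genotype as a block lost Csf3r among these 4, and its other losses are named with the processing. In Het mice after PBS, the adjusted p of Csf1r was 0.0587 to 0.152 without any 1 of the 6 libraries compared, that of Csf3r was 0.0501 to 0.159 without any of 8 libraries (LT-HSC PBS Het 2 and 3, HPC-1 PBS Het 1, 2 and 3, HPC-1 PBS KO 2 and 3 and HPC-1 Ang II WT 2), and that of Csf2rb was 0.0568 without LT-HSC PBS Het 3. In WT mice after Ang II, that of Csf2rb was 0.0517 to 0.223 without any of 12 libraries, the 5 compared and LT-HSC PBS Het 3, LT-HSC Ang II Het 2 and 4, HPC-1 PBS Het 3, HPC-1 PBS KO 2 and 3 and HPC-1 Ang II KO 2. In KO mice after Ang II, that of Il3ra was 0.0585 to 0.111 without LT-HSC Ang II KO 1 or 4 or HPC-1 Ang II KO 1 or 4. Epor in Het mice after Ang II passed, at adjusted p-values of 0.0134 to 0.0488, without any of 10 libraries: LT-HSC PBS WT 1, LT-HSC PBS KO 2, HPC-1 PBS Het 1 and 3, HPC-1 PBS KO 2, HPC-1 Ang II WT 3, HPC-1 Ang II Het 4 and HPC-1 Ang II KO 1, 2 and 3. The log2 fold change of Epor in these fits was 2.61 to 4.32.

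Ang II against PBS was compared within each genotype and cell type. Csf2rb in HPC-1 had the smallest unadjusted p of the receptors here. In Het mice it was at 65.1, 70.5 and 98.1 CPM after PBS and at 114, 120.3, 149 and 152 CPM after Ang II, and in KO mice at 75.8, 65.8 and 92.9 CPM after PBS and at 126, 115, 158 and 100.5 CPM after Ang II. In WT mice it was at 159.5 and 176 CPM after PBS and at 138, 136 and 117 CPM after Ang II. All Ang II libraries lay above all PBS libraries in Het and in KO mice, and all lay below them in WT mice. The share of all genes with such an order is not given, so it cannot be read as particular to Csf2rb. In the same libraries the median sum of the granulocyte markers was 2756 CPM after PBS and 6500.02 CPM after Ang II in Het, 2668 and 5604 CPM in KO and 6525 and 6083 CPM in WT, and that of the monocyte and macrophage markers was 237 and 787 CPM in Het, 255 and 640.4 CPM in KO and 541 and 500.2 CPM in WT. No marker of either list passed the test of Ang II against PBS, and the part of these cells in the Csf2rb values was not tested. The log2 fold change of Ang II against PBS was 0.77 (SE 0.191, unadjusted p = 0.000442, adjusted p = 0.971) in Het, 0.67 (SE 0.190, unadjusted p = 0.00168, adjusted p = 1.00) in KO and −0.35 (SE 0.221, unadjusted p = 0.129) in WT by edgeR.

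No receptor passed the adjusted test of Ang II against PBS in HPC-1 or LT-HSC. The edgeR test called no gene (0%) in LT-HSC Het, LT-HSC KO, HPC-1 WT, HPC-1 Het or HPC-1 KO, while 806, 150, 420, 519 and 244 genes had an unadjusted p under 0.05 and DESeq2 called 0, 1, 1, 4 and 1 genes, none a receptor. Of 35 gene and comparison pairs, 3 had an unadjusted p under 0.05, the values of Csf2rb above and Csf1r in HPC-1 of KO mice (log2 fold change 0.89, unadjusted p = 0.0266). For Csf1r in HPC-1 of KO mice, the PBS libraries lay at 36.3, 16.0 and 78.8 CPM and the Ang II libraries at 86.7, 65.3, 66.5 and 109 CPM, with overlap. In LT-HSC WT the comparison was not tested, since PBS WT has 1 library.

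Whether the effect of Ang II differed between cell types or genotypes was tested as an interaction. No receptor and no gene (0%) passed in any of 4 such tests by edgeR: LT-HSC against HPC-1 in Het and in KO, and KO against Het in LT-HSC and in HPC-1. In these tests 546, 424, 414 and 169 genes had an unadjusted p under 0.05 and DESeq2 called 0 genes in each. After the opposite directions of Csf2rb in HPC-1 had been seen, the effect of Ang II was also compared there between Het and WT, where the interaction of Csf2rb was 1.12 on the log2 scale (SE 0.290, unadjusted p = 0.000725, adjusted p = 0.981), and between KO and WT, where it was 1.02 (SE 0.290, unadjusted p = 0.00177, adjusted p = 1.00). Among receptors with an unadjusted p under 0.05, larger interactions were those of Csf2rb2 (1.53, unadjusted p = 0.0178) and Il3ra (2.07, unadjusted p = 0.0157) in Het against WT. In KO against WT it was that of Csf2rb2 (1.48, unadjusted p = 0.0216). Their adjusted p-values were 0.981, 0.981 and 1.00. The median interaction over the 7 receptors was 1.00 in Het against WT and 1.14 in KO against WT. No gene (0%) passed either of these edgeR tests, with 605 and 451 genes at an unadjusted p under 0.05 and 1 and 0 by DESeq2, none a receptor.

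The genotypes were compared within each agent. The beta chains had the smallest unadjusted p-values of the receptors in KO and in Het against WT in HPC-1 after PBS: Csf2rb was at 159.5 and 176 CPM in WT, and at 65.1, 70.5, 98.1 in Het and 75.8, 65.8, 92.9 in KO, with both WT libraries above all others. Csf2rb2 was at 17.3 and 36.4 CPM in WT, above 11.2, 11.7 and 12.8 in Het and 9.24, 4.30 and 13.8 in KO. For Csf2rb the log2 fold change was −1.11 in KO against WT (SE 0.220, edgeR adjusted p = 0.0759) and −1.11 in Het against WT (SE 0.220, edgeR adjusted p = 0.333). Over 9 alternatives the adjusted p ran from 0.00207 (DESeq2) to 0.122 for KO, under 0.05 in 7 of them, and from 0.0121 to 0.368 for Het, under 0.05 in 4. For Csf2rb2 the values were −1.55 (unadjusted p = 0.00237, adjusted p = 0.540) and −1.18 (unadjusted p = 0.0162, adjusted p = 1.00). After Ang II, Csf2rb in HPC-1 overlapped between the genotypes, at 117 to 138 CPM in WT, 114 to 152 in Het and 100.5 to 158 in KO.

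Beside these values, the summed granulocyte markers of HPC-1 after PBS were at 6120.1 and 6929 CPM in WT, at 2756, 2739 and 5286 in Het and at 2433, 2668 and 4889 in KO, with Mpo the most abundant of the 10 genes and Camp at 0 in all 3 KO libraries. The 4 Het and KO libraries with the lowest sums were those with Csf2rb at 65.1 to 75.8 CPM, and the 2 with higher sums had Csf2rb at 98.1 and 92.9 CPM. These 2 are also the only HPC-1 PBS libraries of at least 4000000 counts, so marker sum and depth class cannot be told apart among the Het and KO libraries. Mpo, the peroxidase of granules, had a log2 fold change of −0.95 in KO against WT (unadjusted p = 0.00266, adjusted p = 0.540), and no marker of the list passed. The sums of other lists were not tested and ran in WT, Het and KO from 442 to 640.4, 228 to 608 and 218 to 607 CPM for monocyte and macrophage markers, 70.3 to 136, 26.6 to 36.3 and 24.1 to 48.9 CPM for eosinophil, mast cell and basophil markers, 310.4 to 402, 400.4 to 593 and 464 to 648 CPM for HSC markers and 1102 to 1477, 1632 to 2052 and 1815 to 2580.5 CPM for multipotent progenitor markers. Megakaryocyte marker sums ran from 135 to 164 CPM in WT, 98.3 to 112 CPM in Het and 92.9 to 113 CPM in KO. Those of erythroid markers overlapped, at 181 to 476, 140 to 421 and 197 to 283 CPM. The part of these cell types in the Csf2rb values was not tested.

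No receptor passed the adjusted edgeR test in any of 10 genotype comparisons. In HPC-1 after PBS, 2 genes passed in KO against WT (0.0152%) and 0 in Het against WT (0%) and KO against Het (0%), with 865, 631 and 151 genes at an unadjusted p under 0.05 and 14, 6 and 0 genes by DESeq2, which called Csf2rb in the former 2 comparisons. In HPC-1 after Ang II no gene (0%) passed in KO against Het, KO against WT or Het against WT, with 375, 661 and 975 genes at an unadjusted p under 0.05 and 0, 2 and 2 genes by DESeq2. Csf3r (0.69), Csf1r (0.82) and Il3ra (1.42) had unadjusted p-values of 0.0179, 0.0401 and 0.0134 in that last comparison, and adjusted p-values of 0.637, 0.666 and 0.637. In LT-HSC no gene (0%) passed in KO against Het after either agent, with 653 genes after PBS and 426 after Ang II at an unadjusted p under 0.05 and 1 and 2 by DESeq2. In LT-HSC after Ang II, 277 genes (1.69%) passed in KO against WT and 136 (0.831%) in Het against WT, with 2896 and 2563 genes at an unadjusted p under 0.05 and 780 and 437 by DESeq2, none a receptor. These counts ran from 98 (without LT-HSC Ang II KO 3) to 627 (without LT-HSC Ang II WT 1), and from 53 (without LT-HSC Ang II Het 4) to 565 (without LT-HSC Ang II WT 1), where the 1 WT library left is assumed to vary like the other groups. Without HPC-1 PBS WT 1, which likewise leaves 1 WT library, the 2 genes of HPC-1 KO against WT became 0, and without HPC-1 Ang II Het 1 they became 5.

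In LT-HSC, the values of Csf1r and Csf2rb in KO against Het moved with the libraries that stand apart. After PBS the log2 fold change of KO against Het was 3.60 for Csf1r, 2.46 for Csf2rb and 0.97 for Csf3r (unadjusted p = 0.0713, 0.0250 and 0.0426, adjusted p = 0.982 for each by edgeR). Without the 3 libraries it was −1.51, 0.45 and 0.32, with 1 KO library left, which held 2 counts of Csf1r and is assumed to vary like the other groups. After Ang II it was 3.72 for Csf1r and 1.95 for Csf2rb (unadjusted p = 0.0457 and 0.0345), and 0.37 and 0.44 without Ang II KO 2.

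**Figure D3:**
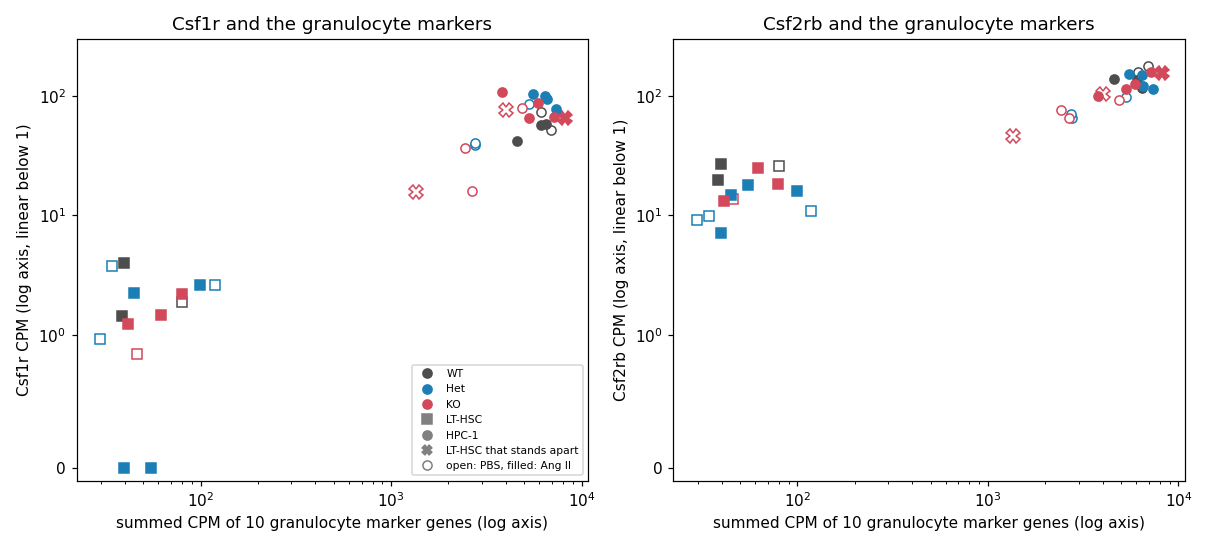
Level of Csf1r and Csf2rb (CPM) in each library against the summed level of 10 granulocyte markers (CPM), on a logarithmic horizontal axis and a vertical axis that is logarithmic above 1 CPM and linear below. The 3 LT-HSC libraries that stand apart have marker sums of 1353 to 8189 CPM, against 29.6 to 118 CPM in the other 14 LT-HSC libraries and 2433 to 7316 CPM in HPC-1.

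Other genes of the same pathways were compared between LT-HSC and HPC-1 with the same edgeR test, in which 17.9% of all genes were higher in LT-HSC and 18.4% lower. Of 13 other receptors, 5 were higher in LT-HSC, among them Osmr (log2 fold change 4.63), Tek (2.37), Kit (0.30) and Il11ra1 (0.29), and 4 were lower, Flt3 (−2.93), Il6ra (−1.81), Il6st (−0.59) and Il7r (−2.63), with a median of −0.07 and Kit the most abundant. Of 8 ligand genes in the table, 2 were expressed enough to be tested, of which Csf1, encoding M-CSF, was higher in LT-HSC (0.75, adjusted p = 0.00425) and Kitl did not pass. The ligand genes Il3 and Epo had no count in any library. Of 25 signalling genes, 10 were higher in LT-HSC, among them the feedback inhibitors Socs2 (5.93) and Cish (3.01), the survival factor Bcl2l1 (1.22) and Jak2 (0.65), the kinase of the erythropoietin receptor. Also among them were Jak3 (0.39), Stat3 (0.29), Jak1 (0.29), Stat5a (0.27) and Tyk2 (0.25). A further 6 were lower, Ptpn6 (−0.32), Stat5b (−0.28), Sh2b3 (−0.27), Inpp5d (−0.23), Gab2 (−0.22) and Cbl (−0.21), and the median was −0.02.

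Transcription factors of the lineages these receptors serve were counted likewise. Of 11, Gata2 (log2 fold change 1.41), Gata1 (1.23) and Tal1 (0.72) were higher in LT-HSC. The myeloid factors Cebpa (−4.26), Irf8 (−4.08), Gfi1 (−1.52) and Spi1 (−1.14) were lower. Klf1 (0.18), Runx1 (0.03), Cebpb (−0.02) and Cebpe (−2.05, adjusted p = 0.0590) did not pass. Cell type markers moved with the cell type as well. All 9 HSC markers, among them the sorted marker Slamf1, and all 7 megakaryocyte markers were higher in LT-HSC. All 7 multipotent progenitor markers were lower, among them the sorted marker Cd48. The direction of Slamf1 and Cd48 was set by the sort. Also lower were 5 of 10 granulocyte, 7 of 11 monocyte and macrophage, and 3 of 6 eosinophil, mast cell and basophil markers. Higher in LT-HSC were 7 of 11 erythroid markers, 1 granulocyte marker (S100a9) and 3 of 11 intestinal epithelium markers tested. S100a9 passed at an adjusted p of 0.0497 and reached 2179 CPM in Ang II KO 2, and Hba-a2 reached 1315 CPM in PBS KO 3 and 993 CPM in Ang II KO 2; these calls were not tested without those libraries. Summed B lymphoid markers lay at 2.73 to 20.6 CPM and T lymphoid markers at 0 to 14.3 CPM over all libraries; 1 of 2 T lymphoid markers tested, Cd4, was lower in LT-HSC (log2 fold change −2.13, adjusted p = 0.0214) and neither of 2 B lymphoid markers passed. In the genotype and Ang II comparisons, the genes of these lists that passed were intestinal epithelium markers. In LT-HSC after Ang II, 8 of them were lower in each of KO and Het against WT. Of all genes, 1.69% and 0.831% passed there in either direction. The sum of these 13 markers, Muc13 the most abundant, was 951, 944 and 1015 CPM in the 3 WT LT-HSC libraries and 462 to 708 CPM in the other LT-HSC libraries.

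The genes whose levels most resembled each receptor over the 36 libraries were ranked by Spearman's rho of log2 CPM, as a description. The points share the difference between 2 cell types and between depth classes, so rho within the 17 LT-HSC and the 19 HPC-1 libraries is given for the closest gene. For Csf3r the closest included Osbpl5 (0.890 over all, 0.775 and 0.686 within) and Arid5a (0.875). For Csf1r they included the monocyte factor Irf8 (0.931 over all, 0.809 and 0.795 within) and Hk3 (0.917). For Csf2rb they were Alas1 (0.924 over all, 0.811 and 0.725 within), an enzyme of heme synthesis, Anxa2 (0.915) and Taldo1 (0.914). Il3ra was closest to Il31ra (0.899 over all, 0.561 and 0.854 within), Hk3 (0.871) and Rsc1a1 (0.868). Weaker were the best values of Csf2ra with Ggnbp2 (0.748 over all, 0.686 and 0.709 within), Glt8d1 (0.737) and Ppp2r2a (0.728), of Csf2rb2 with Pi16 (0.706 over all, 0.397 and 0.723 within), Klhdc4 (0.689) and Cybb (0.682), and of Epor with Smim1 (0.748 over all, 0.471 and 0.686 within) and Hmcn1 (0.744).

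Among the receptors themselves, levels followed each other most closely over all 36 libraries for Csf1r and Il3ra (Spearman's rho 0.858) and for Csf1r and Csf2rb (0.818), again as a description with the cell types shared. Within the 19 HPC-1 libraries the highest values were those of Csf1r with Il3ra (0.768) and of Csf2rb with Csf2rb2 (0.705), which share part of their sequence. Within the 17 LT-HSC libraries, which include the 3 that stand apart, Csf2rb was closest to Csf3r (0.657) and to Csf1r (0.615). Epor had negative values with Csf3r (−0.50), Csf1r (−0.45), Csf2rb (−0.39) and Il3ra (−0.55) over all libraries, and values of 0.00980, −0.17, −0.11 and 0.211 within LT-HSC. Its values within HPC-1 were −0.30, 0.114, 0.144 and −0.20.

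The promoters of Csf1r and Csf2rb were not examined. For 5 of the 7 genes, Csf3r, Csf2ra, Csf2rb2, Il3ra and Epor, promoter windows of 250 bases before the RefSeq gene start (GRCm38.p6) were taken. They were searched on both strands for AGATAA, a motif of the GATA family, for the PU.1 motif AGGAAGT, PU.1 being the product of Spi1, for the shorter PU.1 core GAGGAA, which can overlap it, and for TTGCNNAA (C/EBP factors). In this order the motifs occur in 9.99%, 7.69%, 23.3% and 9.56% of 32851 such windows. Epor is shown as the receptor higher in LT-HSC and Csf2rb2 as the beta chain that did not separate the populations, with the match in capitals. The Epor window (chr9:21963577-21963826, minus strand) holds AGATAA once, on the opposite strand, starting 54 bases before the gene start. The Csf2rb2 window (chr15:78305722-78305971, minus strand) holds GAGGAA once, on the opposite strand, starting 167 bases before it. Of the other windows, that of Csf3r holds GAGGAA once, that of Csf2ra holds it at 14 and at 8 bases before the start, and that of Il3ra holds AGGAAGT and TTGCNNAA once each, all on the strand of the gene. The RefSeq starts can differ from the gene positions given above, and the windows of Csf3r, Csf2ra and Il3ra reach into those positions. The matches are a description and not a site.
Epor: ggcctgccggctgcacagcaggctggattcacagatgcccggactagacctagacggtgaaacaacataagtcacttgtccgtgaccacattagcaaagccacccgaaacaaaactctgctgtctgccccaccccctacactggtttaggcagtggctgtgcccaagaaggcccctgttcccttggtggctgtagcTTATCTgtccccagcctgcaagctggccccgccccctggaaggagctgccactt
Csf2rb2: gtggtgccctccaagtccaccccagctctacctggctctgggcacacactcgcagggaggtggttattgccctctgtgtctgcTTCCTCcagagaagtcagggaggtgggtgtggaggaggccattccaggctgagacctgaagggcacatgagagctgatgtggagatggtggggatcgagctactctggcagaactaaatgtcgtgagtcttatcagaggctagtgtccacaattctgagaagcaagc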

How the data were processed

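The authors deposited RSEM expected counts per gene, in whole numbers and without normalization, for 36 libraries of 5000 sorted cells each. The deposited notes name Bowtie2 and RSEM 1.2.31, whereas the paper names STAR and RSEM. Total counts were 1980283 to 6861078 per library (median 3139364), and values at 0 allow up to 3 counts. Groups followed the labels. Gene symbols matched 37570 of 38887 identifiers, and exon lengths came from GENCODE.

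Genes were kept by filterByExpr, scaled by TMM and tested with edgeR 4.0.16 (robust quasi-likelihood fit, R 4.3.3) with Benjamini-Hochberg adjustment at 5% over all genes tested, 18013 in 1 model of the 12 groups of both cell types and 16365 in LT-HSC and 13199 in HPC-1 alone. Log2 CPM used a prior count of 2. The models were also run on simulated counts, and the outcome is not reported here. Python 3.11.15 with pandas 2.3.3 and matplotlib 3.10.9 served for summaries and figures.

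The named genes were the 7 receptors in every comparison, genes of the receptor, ligand and signalling lists that passed the test or were the most abundant of their list, and the 3 genes most like each receptor; some of these genes are not reported. The receptors and lists were chosen with earlier results of these data known. Lists of HSC, multipotent progenitor, granulocyte, monocyte and macrophage, erythroid, megakaryocyte, eosinophil with mast cell and basophil, B lymphoid, T lymphoid and intestinal epithelium markers were summed as CPM.

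As alternatives, DESeq2 1.42.0 replaced edgeR, upper quartiles replaced TMM, and the filter was dropped or set to mean counts of 10 or more. Other fits took only the groups in question. Further fits used a replicate block, Y-linked expression as a covariate, each library left out and omission of libraries that stand apart. They also used libraries under 4000000 counts, all 6 combinations of agent and genotype, and both beta chain genes summed. In the model of both cell types the block was the replicate number within agent and genotype, and within 1 cell type it was the number alone. Residuals for its check were log2 CPM minus group means. Chosen after seeing the data were the omission of 3 libraries together, depth class as a covariate with its own contrast, libraries of at least 4000000 counts, and the 2 interactions of Ang II with Het and KO against WT in HPC-1. LT-HSC PBS WT has 1 library and entered no test against another group of LT-HSC.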

Additional observations from a re-analysis of the deposited data

Results flagged for a closer look

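A library far from the others of its group was seen in 4 of 28 pairs of a gene and a group, 7 genes in 4 groups of 4 libraries, where chance gives about 1 in 20. Of all 18013 genes, 12.3% to 16.6% had such a library in these groups by the same measure, 14.1% in LT-HSC Ang II KO (7.38% by its replicate 2) and 13.9% in HPC-1 Ang II KO. The pairs are not independent, as 3 of the 4 come from 1 library. In LT-HSC Ang II KO, replicate 2 lay far above the other 3 for Csf1r (65.5 CPM), Csf2rb (157 CPM) and Csf2rb2 (26.3 CPM), and its gaps to the nearest library were 0.985, 0.918 and 0.869 of the group's range. It is 1 of the libraries that stand apart by their markers. In HPC-1 Ang II KO, replicate 4 had 245 CPM of Csf3r, a gap of 0.935 of the range.

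A difference between groups was seen for Csf2rb in HPC-1. Ang II against PBS had a log2 fold change of −0.35 in WT, with every Ang II library below every PBS library, and of 0.77 in Het and 0.67 in KO, with every Ang II library above every PBS library. The interactions tested for these pairs did not pass the adjusted edgeR test (adjusted p = 0.981 for Het against WT and 1.00 for KO against WT). The median sum of granulocyte markers in the same libraries was 6525 CPM after PBS and 6083 CPM after Ang II in WT, 2756 and 6500.02 CPM in Het and 2668 and 5604 CPM in KO, and that of monocyte and macrophage markers was 541 and 500.2 CPM, 237 and 787 CPM, and 255 and 640.4 CPM. The part of these cells was not tested, and the share of all genes with the same order of libraries is not given.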

How the results depend on the processing

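The number of receptors called between LT-HSC and HPC-1 over groups was 5 in 14 of 15 alternatives, 4 over libraries of at least 4000000 counts and 5 with each library left out. All genes called went from 6543 to 2258 over libraries of at least 4000000 counts (5899 to 6806 with each library left out). Epor, 1.44, was 1.08 there and 1.14 over all 6 combinations, where Csf2rb2 went from −0.19 to −0.60, and neither changed direction. Epor was not called in either of these fits. Over all 6 combinations Csf2rb2 was called in its place, so the 5 receptors were a different set.

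Within combinations, the 9 receptor calls (8342 calls over all genes) became 11 (10723) with DESeq2, 15 (9709) without a filter on low counts, 15 (11671) without LT-HSC PBS KO 2 and Ang II KO 2, 16 (10572) without these and PBS KO 3, 5 (4079) in libraries under 4000000 counts and 5 (8533) with a replicate block, which lost Csf3r and Csf1r in Het after PBS and Csf2rb in WT, Csf3r in Het and Il3ra in KO after Ang II and gained Epor in Het after Ang II (5 to 13 with each library left out). For genotype, 0 calls (415 over all genes) became 2 (1244) with DESeq2, 9 (1909) without a filter, 1 (102) with the compared groups alone, 2 (145) with a replicate block, 1 (283) with Y-linked expression as a covariate, 2 (61) in libraries under 4000000 counts and 1 (186) with depth class as a covariate (0 with each library left out). All were Csf2rb in HPC-1 after PBS, in KO or Het against WT, apart from 7 of the 9 without a filter: in LT-HSC, Csf3r, Csf1r and Csf2rb in KO against Het after PBS, and Csf1r and Csf2rb in KO against Het and against WT after Ang II. For the interactions, 0 (0 over all genes) became 1 (217) without a filter, Csf1r in KO. For Ang II against PBS, 0 receptors were called in every alternative, and over all genes 0 calls became 7 with DESeq2, 182 without a filter, 8 with a replicate block, 21 in libraries under 4000000 counts and 1 without the 3 libraries that stand apart. The cause was not tested.

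The labels give numbers to libraries and do not say that equal numbers share a mouse. Of 16 pairs of LT-HSC and HPC-1 libraries with the same number and a correlation, 9 had residual correlations over 0.1 (median 0.126, against −0.0276 for other numbers). With low sums again taken as none, 4 of 17 pairs had Y-linked counts in 1 library only. With the replicate block, 6241 genes were called over groups, and the log2 fold changes were −4.08 for Csf1r, −2.34 for Csf2rb and 2.03 for Epor.

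Low counts limit Epor in HPC-1, Csf1r in LT-HSC and Il3ra, and WT groups of 1 to 3 libraries limit every comparison with WT.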
